A study of Mus musculus with 6 samples.

Results

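Scavenger receptors are surface and endosomal proteins with which macrophages bind particles and altered lipoproteins that no antibody or complement has coated. Described here are the 9 genes Msr1, Marco, Cd36, Scarb1, Cd68, Olr1, Stab1, Mrc1 and Lrp1, chosen by name from the 55536 genes of the annotation. Of these 9, 7 were measured well enough to be tested and 2, Marco and Mrc1, were listed at 0 in every library. The cells were RAW264.7, a mouse macrophage-like line. The labels give the background strain as C57BL/6, although this line is usually described as BALB/c derived. There were 2 groups of 3 libraries of total RNA, a control group (Ctrl) given PBS and a group given Ti particles. The labels name no genetic change or other agent; the dose and size of the particles and the length of exposure were not found in the sources used here. Nothing in the labels says whether the libraries of a group came from separate cultures. The p-values below therefore set the difference between Ti and Ctrl against the spread of these libraries, and that spread may be technical.

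The receptors fall into structural classes. The class A receptors Msr1 (SR-A) and Marco are collagen-like trimers that bind polyanions, bacteria and mineral dusts. Class B holds Cd36, which takes up oxidised LDL and fatty acids, and Scarb1, the HDL receptor. Cd68 (macrosialin) is a heavily glycosylated relative of the lysosomal LAMP proteins, Olr1 (LOX-1) is a lectin-like receptor for oxidised LDL, and Stab1 is a large receptor that clears matrix proteins and modified LDL. Mrc1 is the mannose receptor, and Lrp1 is a giant endocytic receptor of the LDL receptor family that removes protease-inhibitor complexes and apolipoprotein E particles.

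The libraries held 37685950 to 60242851 estimated counts after rescaling. A count of 3 in a library, taken as the limit of detection, was 0.0498 to 0.0796 CPM (the count over the library total, scaled to 1000000); it covers counting error only and is approximate, because a rescaled count is not a read. All 8 macrophage markers examined were measured, with a summed level of 5428 to 7208 CPM in Ctrl and 6689 to 8529 CPM in Ti libraries. Of these 8, 5 had positive and 3 negative fold changes, and none passed the test for a difference between Ti and Ctrl described below. Csf1r, the receptor for the macrophage growth factor CSF-1, was the most uneven in CPM, at 472, 1462 and 1598 in Ctrl and 1387, 144 and 435 in Ti replicates 1, 2 and 3. Markers of fibroblasts, endothelium, T cells, B cells and epithelium were at or near 0, with summed levels of at most 0.458 CPM for any of these types in any library. Dcn and Epcam were at 0 in all 6 libraries.

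For 2 receptors the annotated transcripts differ in a part of the protein, and these stretches are shown because the transcript values given further on turn on them. Scarb1-201 and Scarb1-202 encode proteins of 509 and 506 residues (known as SR-BI and SR-BII) that differ in the cytoplasmic tail. The sequence below is exon 12 of 13 in Scarb1-201, a 129-base exon skipped in Scarb1-202 (GENCODE vM21, GRCm38 chr5:125281105-125281233, minus strand), printed 5′ to 3′ with the stop codon in capitals.
Scarb1-201 exon 12: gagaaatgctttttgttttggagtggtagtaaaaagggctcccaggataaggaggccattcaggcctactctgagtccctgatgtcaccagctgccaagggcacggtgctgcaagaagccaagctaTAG
Msr1-201 encodes 458 residues (type I, with a cysteine-rich SRCR domain at its end) and Msr1-202 encodes 354 (type II, without it). The coding parts of exons 9 and 10 of Msr1-201, absent from Msr1-202, lie at chr8:39589290-39589478 and chr8:39581732-39581865, minus strand, and are printed with the stop codon in capitals.
Msr1-201 exon 9: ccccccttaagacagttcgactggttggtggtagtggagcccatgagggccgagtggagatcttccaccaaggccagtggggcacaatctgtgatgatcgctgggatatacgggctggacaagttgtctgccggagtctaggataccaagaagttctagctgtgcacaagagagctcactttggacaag
Msr1-201 exon 10: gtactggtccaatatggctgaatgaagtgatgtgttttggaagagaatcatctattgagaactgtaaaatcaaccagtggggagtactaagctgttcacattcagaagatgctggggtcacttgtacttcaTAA

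Receptor levels were first ordered within each group by the per-length level, that is the rescaled count per exon base as a share of that of all annotated transcripts (TPM, scaled to 1000000). In Ctrl the order was Lrp1 at 273 ± 32.5, Cd36 at 86.1 ± 18.5, Cd68 at 77.1 ± 9.38, Scarb1 at 51.4 ± 6.02, Msr1 at 33.6 ± 12.0, Stab1 at 1.15 ± 0.198 and Olr1 at 0.239 ± 0.162 TPM (mean ± SD, n = 3). Lrp1 lay above 97.7% of all tested genes on this scale and Olr1 above 5.24%. The ranges of Cd36 and Cd68 overlapped in Ctrl, as did those of Scarb1 and Msr1. Within each Ctrl library, however, Scarb1 stood above Msr1 (54.7 against 25.8, 44.4 against 27.6 and 55.0 against 47.4 TPM). Cd36 stood above Cd68 in Ctrl replicates 1 and 2 and below it in Ctrl replicate 3 (67.0 against 82.2 TPM). In Ti the order by mean was the same, with Lrp1 at 248 ± 76.5, Cd36 at 139 ± 36.9, Cd68 at 70.6 ± 13.9, Scarb1 at 44.9 ± 8.48, Msr1 at 43.1 ± 21.4, Stab1 at 1.20 ± 0.465 and Olr1 at 1.10 ± 0.661 TPM. There the Cd36 libraries lay above the Cd68 libraries without overlap, and the ranges of Scarb1 and Msr1 and of Stab1 and Olr1 overlapped.

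**Figure D1:**
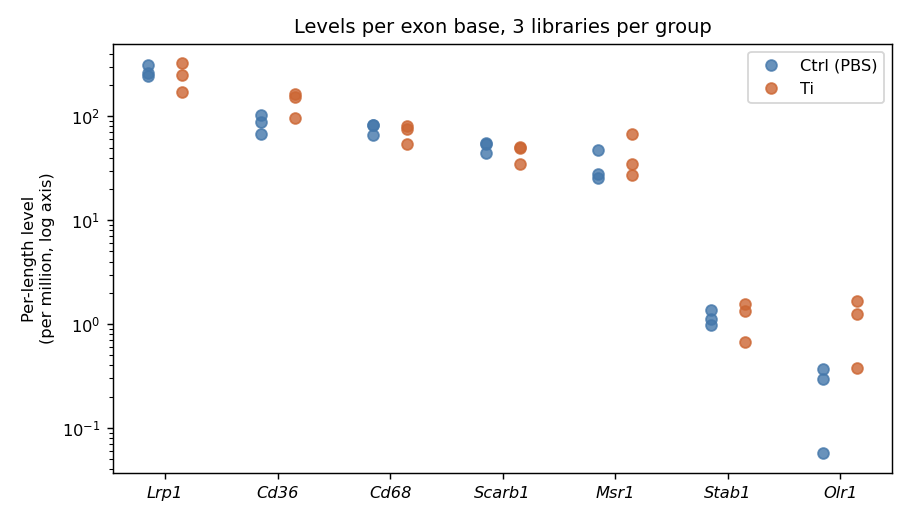
Per-length level of the 7 detected receptor genes (TPM, log axis), with 3 Ctrl and 3 Ti libraries as points. Lrp1 is highest and Olr1 lowest in Ctrl, and the Ti points of Olr1 reach those of Stab1.

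Marco (ENSMUSG00000026390; GRCm38 chr1:120474538-120505024, minus strand) and Mrc1 (ENSMUSG00000026712; chr2:14229392-14332057, plus strand) gave no detectable signal. Both annotated transcripts of each gene were at 0 in all 6 libraries, below the limit of detection given above in every library. Marco is a receptor for uncoated particles and Mrc1 a marker of alternatively activated macrophages; neither became detectable with Ti. Assembled transcripts without a gene name, which carried 36.9% to 51.2% of the deposited values, were not analysed here, so signal assigned to such a transcript would be missed for any of the 9 genes.

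The comparison of Ti with Ctrl asked which receptor messages differed after particle exposure. None of the 7 tested genes passed an adjusted p of 0.05 over the 15376 genes tested (edgeR quasi-likelihood test, Benjamini-Hochberg), with adjusted p from 0.712 to 0.952; DESeq2 also called 0. Of all genes 0.026% passed with edgeR and 1.91% with DESeq2. At an unadjusted p under 0.05, 2 of the 7 passed with edgeR (Olr1 and Lrp1) and 2 with DESeq2 (Olr1 and Cd36), against 6.76% of all genes with edgeR and 8.58% with DESeq2. The receptor genes were chosen with earlier results of these data known, so these counts cannot be read as an excess. The fold change was positive for 4 genes (Olr1, Cd36, Stab1 and Msr1) and negative for 3 (Lrp1, Scarb1 and Cd68), with a median log2 fold change of 0.29 beside 0.0053 for all genes tested. This median is the value of Msr1 alone, which was -0.12 without Ti replicate 3 and -0.00089 with protein-coding transcripts only. Only Lrp1 had groups that did not overlap on the CPM scale, 1 gene of 7 beside 13.3% of all genes separated in either direction (6.63% higher and 6.71% lower with Ti). CPM values use library totals scaled by TMM, edgeR's correction for composition. In bulk RNA fewer cells of a type and less RNA per cell cannot be told apart, and all gene positions are on GRCm38.

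**Figure D2:**
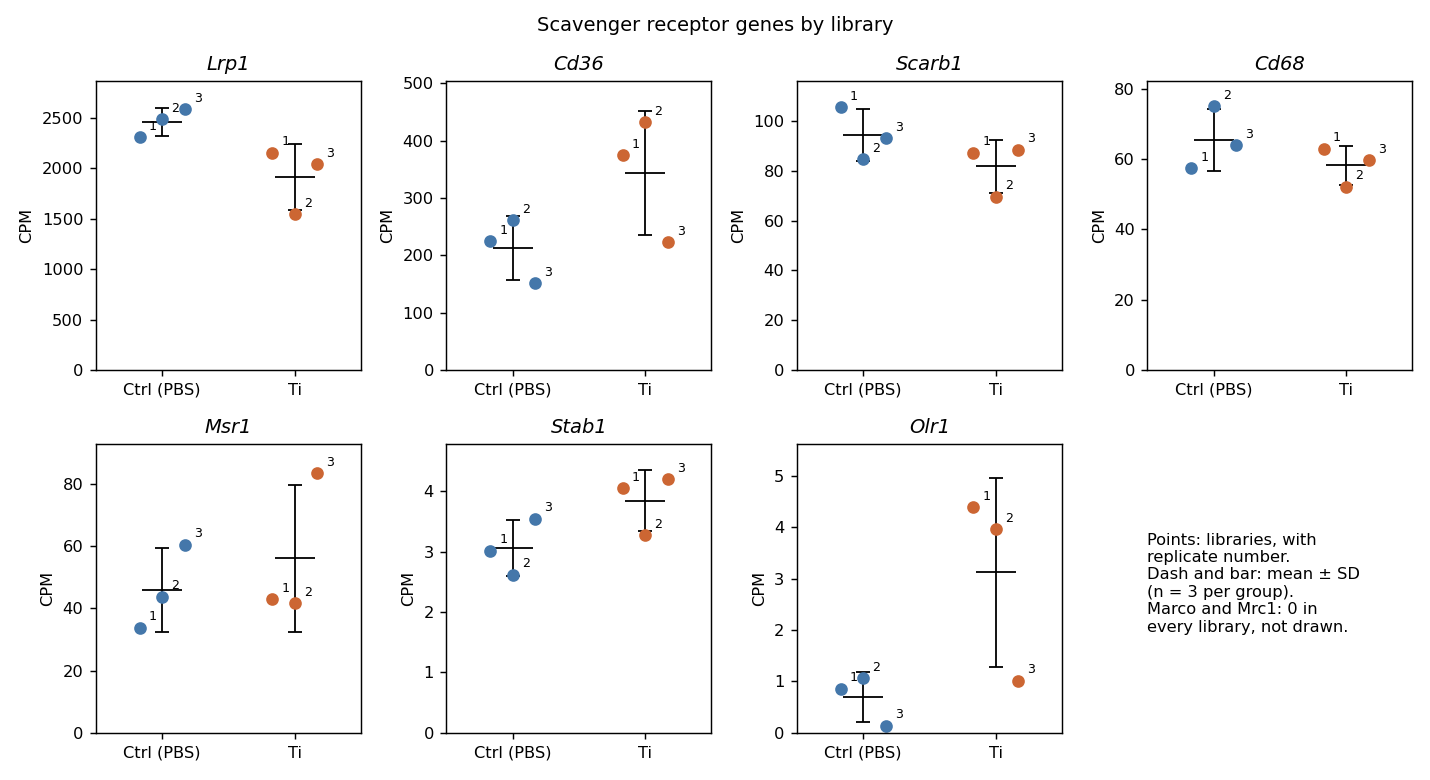
CPM of each detected receptor gene by library, with replicate numbers beside the points and mean ± SD (n = 3 per group) as a dash and bar. The 3 Ti libraries of Lrp1 lie below the 3 Ctrl libraries, and in Cd36 and Olr1 the libraries numbered 3 are the lowest of their group.

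Among the receptors for oxidised LDL, Olr1 averaged higher with Ti at a low level. The gene (ENSMUSG00000030162) lies at chr6:129485244-129507165, minus strand. Olr1 stood at 0.860, 1.07 and 0.144 CPM in Ctrl replicates 1, 2 and 3 and at 4.40, 3.96 and 1.02 CPM in Ti replicates 1, 2 and 3. The counts behind these values were 55, 43 and 6 in Ctrl and 205, 148 and 49 in Ti. The lowest Ti library, replicate 3, overlapped the Ctrl range, and the Ctrl library of the same number was the lowest of all; on the per-length scale, which is not TMM-scaled, the groups were separated by a narrow margin (highest Ctrl 0.367, lowest Ti 0.381 TPM). The log2 fold change was 2.17 ± 0.83 (SE; unadjusted p 0.0401, edgeR adjusted p 0.712). Only 1 of the 5 annotated transcripts, Olr1-201 with 363 codons, had any value, and it carried the whole gene.

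Cd36, the fatty acid and oxidised LDL receptor, also averaged higher with Ti. The gene (ENSMUSG00000002944) lies at chr5:17781690-17888801, minus strand. It stood at 225, 262 and 151 CPM in Ctrl replicates 1, 2 and 3 and at 375, 433 and 224 CPM in Ti replicates 1, 2 and 3. The 2 highest libraries were Ti libraries, but Ti replicate 3 lay inside the Ctrl range. The log2 fold change was 0.69 ± 0.30 (unadjusted p 0.0614, edgeR adjusted p 0.761). It was 0.93 without Ti replicate 3 and 0.49 without Ti replicate 2. All 4 Cd36 transcripts with a value encode the same length of 472 codons, and all 4 had positive fold changes. Cd36-204, which carried 58.1% of the gene, averaged 122 ± 34.4 CPM in Ctrl and 200 ± 76.5 CPM in Ti, and its groups overlapped. Cd36-201, which starts further downstream, stood at 21.3, 31.9 and 23.9 CPM in Ctrl and at 50.4, 56.1 and 36.4 CPM in Ti replicates 1, 2 and 3. Its groups were separated, its log2 fold change was 0.87 ± 0.26 and its unadjusted p was 0.0169 (edgeR adjusted p over transcripts 1.0).

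Cd36 and Olr1 had the same order by replicate number, which was picked out after the values were seen. How many of all genes have this order was not counted. Across all genes tested, the deviations of the libraries numbered 3 from their group means were also correlated (r = 0.266). In both genes the libraries numbered 3 were the lowest of their group: Ctrl replicate 3 was 0.622 times the mean of Ctrl replicates 1 and 2 for Cd36 and 0.149 times for Olr1, and Ti replicate 3 was 0.554 and 0.244 times the mean of the other Ti libraries. Msr1 had the opposite order, with replicate 3 at 1.56 times the others in Ctrl and 1.97 times in Ti. Whether number 3 marks a batch or day is not stated in the labels, and its part in these differences was not tested. Set against the Ctrl library of the same number, the Ti level of Cd36 was 1.67, 1.65 and 1.48 times as high for numbers 1, 2 and 3, and that of Olr1 was 5.12, 3.70 and 7.09 times as high. The CPM ratios of Stab1 were likewise above 1 in all 3 numbers. On the per-length scale, however, Stab1 was lower in Ti replicate 2 than in Ctrl replicate 2 (0.672 against 1.11 TPM). Of genes above 0 in all libraries, 18.3% had all 3 ratios above 1 and 17.4% had all 3 below 1. Lrp1 and Scarb1 had all 3 CPM ratios below 1, and those of Msr1 and Cd68 fell on both sides. On the per-length scale Lrp1 was higher with Ti for number 1 (252 against 248 TPM) and number 3 (323 against 310 TPM).

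**Figure D3:**
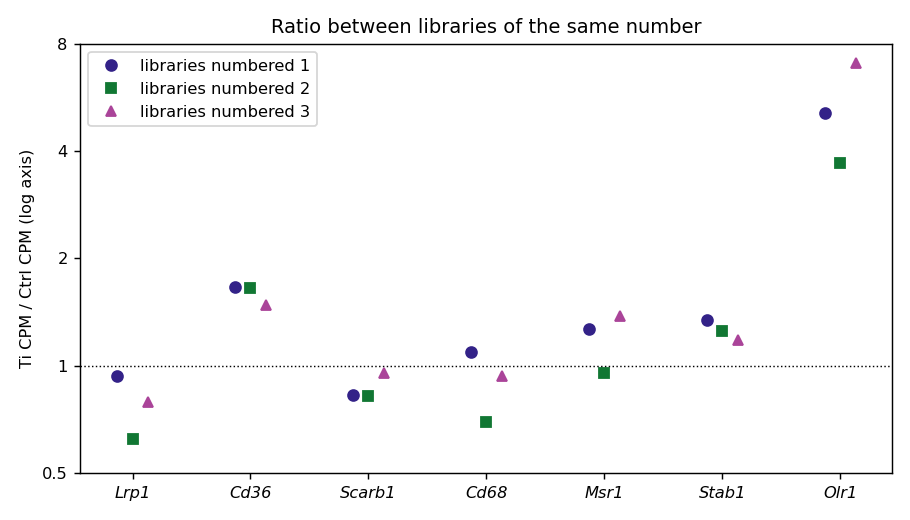
Ratio of Ti to Ctrl CPM between libraries of the same replicate number for each detected receptor gene (log axis), 1 marker per number, with the dotted line at equality. Cd36 ratios lie between 1.48 and 1.67, and Olr1 ratios between 3.70 and 7.09.

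The bases just upstream of the RefSeq starts of Cd36 and Olr1 are shown because in these 2 genes the libraries numbered 3 were the lowest of their group. Both are the 250 bases before the RefSeq start (table build GRCm38.p6), printed 5′ to 3′ on the minus strand, at chr5:17835897-17836146 for Cd36 and chr6:129507166-129507415 for Olr1. The RefSeq start of Cd36 lies 179 bases from the nearest annotated GENCODE start, that of Cd36-206, close to Cd36-201. Cd36-204 and Cd36-202, which carried 58.1% and 25.9% of the gene, start further upstream, at chr5:17849792 and chr5:17849729. The window shown is therefore not the stretch before the starts of the main Cd36 transcripts. Capitals mark matches, on either strand, to the 6 motifs searched, whose matches did not overlap in these windows: the AP-1 motif TGANTCA, an NF-kB motif (GGGA and CC with any 4 bases between), the ETS core GAGGAA, the nuclear receptor core motif AGGTCA, the C/EBP motif TTNCGNAA and the TATA box TATAAA.
Cd36 upstream: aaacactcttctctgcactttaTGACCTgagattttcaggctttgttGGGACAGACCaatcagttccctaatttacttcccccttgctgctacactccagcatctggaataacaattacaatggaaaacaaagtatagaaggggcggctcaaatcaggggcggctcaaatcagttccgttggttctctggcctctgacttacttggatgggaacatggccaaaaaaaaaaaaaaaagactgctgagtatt
Olr1 upstream: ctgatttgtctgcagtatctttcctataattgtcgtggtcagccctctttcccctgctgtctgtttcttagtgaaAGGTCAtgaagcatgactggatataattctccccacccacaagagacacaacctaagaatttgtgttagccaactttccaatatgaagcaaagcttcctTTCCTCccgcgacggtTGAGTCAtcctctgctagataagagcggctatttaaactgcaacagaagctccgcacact
The Cd36 window held an AGGTCA match beginning 228 bases (on the opposite strand) and an NF-kB match beginning 203 bases before the start. The Olr1 window held AGGTCA at 175, GAGGAA at 76 (on the opposite strand) and TGANTCA at 60 bases before the start. Of the 32851 windows of this length in the table, 14.02% held AGGTCA, 17.6% the NF-kB motif, 23.3% GAGGAA and 6.75% TGANTCA. These are matches of letters and not evidence of binding.

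Lrp1, the endocytic receptor for protease-inhibitor complexes, averaged lower with Ti. The gene (ENSMUSG00000040249) lies at chr10:127538161-127621148, minus strand. It stood at 2311, 2485 and 2586 CPM in Ctrl replicates 1, 2 and 3 and at 2157, 1545 and 2040 CPM in Ti replicates 1, 2 and 3. Every Ti library lay below every Ctrl library, which held for 6.71% of all genes. The log2 fold change was -0.36 ± 0.14 (unadjusted p 0.0438, edgeR adjusted p 0.731), and -0.23 without Ti replicate 2. The full-length transcript Lrp1-201, of 4545 codons, carried 95.7% of the gene and stood at 2260, 2436 and 2528 CPM in Ctrl and at 2112, 1494 and 1732 CPM in Ti replicates 1, 2 and 3. Its groups were also separated, with a log2 fold change of -0.45 ± 0.14 (unadjusted p 0.0159, edgeR adjusted p over transcripts 1.0).

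A short Lrp1 transcript set Ti replicate 3 apart. Lrp1-203, of 743 codons, stood at 276 CPM in Ti replicate 3 and at 4.86 to 9.59 CPM in the other 5 libraries. On the per-length scale it made up 45.1% of Lrp1-201 and Lrp1-203 in Ti replicate 3, against 1.02% to 1.97% in Ctrl and 2.24% and 3.20% in Ti replicates 1 and 2. On that scale the levels of the whole gene Lrp1 were 248, 263 and 310 TPM in Ctrl and 252, 170 and 323 TPM in Ti replicates 1, 2 and 3. These groups overlapped, with Ti replicates 1 and 3 above the lowest Ctrl library; what part Lrp1-203 has in the overlap was not tested.

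Scarb1, the HDL receptor, did not pass the test as a gene. The gene (ENSMUSG00000037936) lies at chr5:125277087-125341094, minus strand. It stood at 106, 84.6 and 92.9 CPM in Ctrl and at 87.3, 69.6 and 88.5 CPM in Ti replicates 1, 2 and 3, with overlapping groups and a log2 fold change of -0.21 ± 0.14 (edgeR adjusted p 0.873). It was -0.10 without Ti replicate 2 and -0.12 without Ctrl replicate 1. Scarb1-201, the transcript with exon 12, averaged 52.0 ± 21.2 CPM in Ctrl and 52.4 ± 11.4 CPM in Ti. Scarb1-202, which skips that exon, stood at 14.7, 39.3 and 31.4 CPM in Ctrl and at 16.6, 4.74 and 10.6 CPM in Ti replicates 1, 2 and 3. Ctrl replicate 1 fell among the Ti libraries, so the groups overlapped, and the log2 fold change of Scarb1-202 was -1.44 ± 0.57 (unadjusted p 0.0458, edgeR adjusted p over transcripts 1.0). As a share of both transcripts on the per-length scale, Scarb1-202 made up 17.1%, 53.9% and 43.0% in Ctrl and 24.0%, 11.3% and 15.5% in Ti (two-sided exact permutation p 0.20, adjusted over 4 such shares 0.40; the smallest p that 3 against 3 libraries allow is 0.10). A retained-intron transcript, Scarb1-209, was at 18.4 CPM in Ti replicate 2 and at 0.923 to 2.12 CPM elsewhere. The gene Gm42633 overlaps Scarb1 on the same strand over 2764 bases, and reads there could be counted for either.

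Msr1, the class A receptor, was uneven between libraries. The gene (ENSMUSG00000025044) lies at chr8:39581685-39642673, minus strand. It stood at 33.8, 43.8 and 60.5 CPM in Ctrl and at 43.0, 41.8 and 83.5 CPM in Ti replicates 1, 2 and 3. The groups overlapped, and the log2 fold change of 0.29 ± 0.35 (edgeR adjusted p 0.952) was -0.12 without Ti replicate 3. It ranged from 0.10 to 0.53 with another library left out, at the ends without Ctrl replicate 1 and without Ctrl replicate 3. The protein-coding transcripts did not carry the positive value: Msr1-202, the type II form, averaged 22.1 ± 6.10 CPM in Ctrl and 22.4 ± 10.8 CPM in Ti, and Msr1-201, the type I form, 3.19 ± 2.21 and 2.32 ± 1.49 CPM. Msr1-204, annotated as a retained intron, carried 39.1% of the gene and averaged 15.8 ± 5.89 CPM in Ctrl and 24.5 ± 8.72 CPM in Ti (log2 fold change 0.62 ± 0.36, edgeR adjusted p over transcripts 1.0). The type I share of both coding transcripts on the per-length scale was 36.8%, 8.05% and 33.5% in Ctrl and 21.6%, 16.0% and 22.6% in Ti (two-sided exact permutation p 0.50, adjusted 0.67).

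Cd68 (ENSMUSG00000018774; chr11:69664213-69666153, minus strand), the LAMP-related marker of macrophage endosomes, stood at 57.4, 74.9 and 64.0 CPM in Ctrl and at 62.9, 52.1 and 59.7 CPM in Ti replicates 1, 2 and 3. The groups overlapped, with a log2 fold change of -0.17 ± 0.14 (edgeR adjusted p 0.915). It was -0.061 without Ctrl replicate 2, -0.095 without Ti replicate 2 and -0.26 without Ctrl replicate 1. Its main transcript Cd68-201 carried 79.4% of the gene and averaged 52.6 ± 9.62 CPM in Ctrl and 46.0 ± 4.35 CPM in Ti.

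Stab1 (ENSMUSG00000042286; chr14:31139013-31168641, minus strand), the class H clearance receptor, was close to the low end of what was measured, at 105 to 202 counts per library. It stood at 3.02, 2.62 and 3.55 CPM in Ctrl and at 4.06, 3.27 and 4.20 CPM in Ti replicates 1, 2 and 3, with overlapping groups and a log2 fold change of 0.33 ± 0.22 (edgeR adjusted p 0.868). On the per-length scale it stood at 0.973, 1.11 and 1.36 TPM in Ctrl and at 1.35, 0.672 and 1.56 TPM in Ti. There Ti replicate 2 was the lowest of all libraries. The full-length transcript Stab1-201, of 2571 codons, carried 74.8% of the gene and stood at 2.19, 2.07 and 2.21 CPM in Ctrl and at 3.05, 3.08 and 3.04 CPM in Ti. These groups were separated, with a log2 fold change of 0.48 ± 0.22 (unadjusted p 0.0714, edgeR adjusted p over transcripts 1.0). Nt5dc2 overlaps Stab1 on the opposite strand over 112 bases and was more abundant, and whether the counting used strand is not given in the sources used here.

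**Figure D4:**
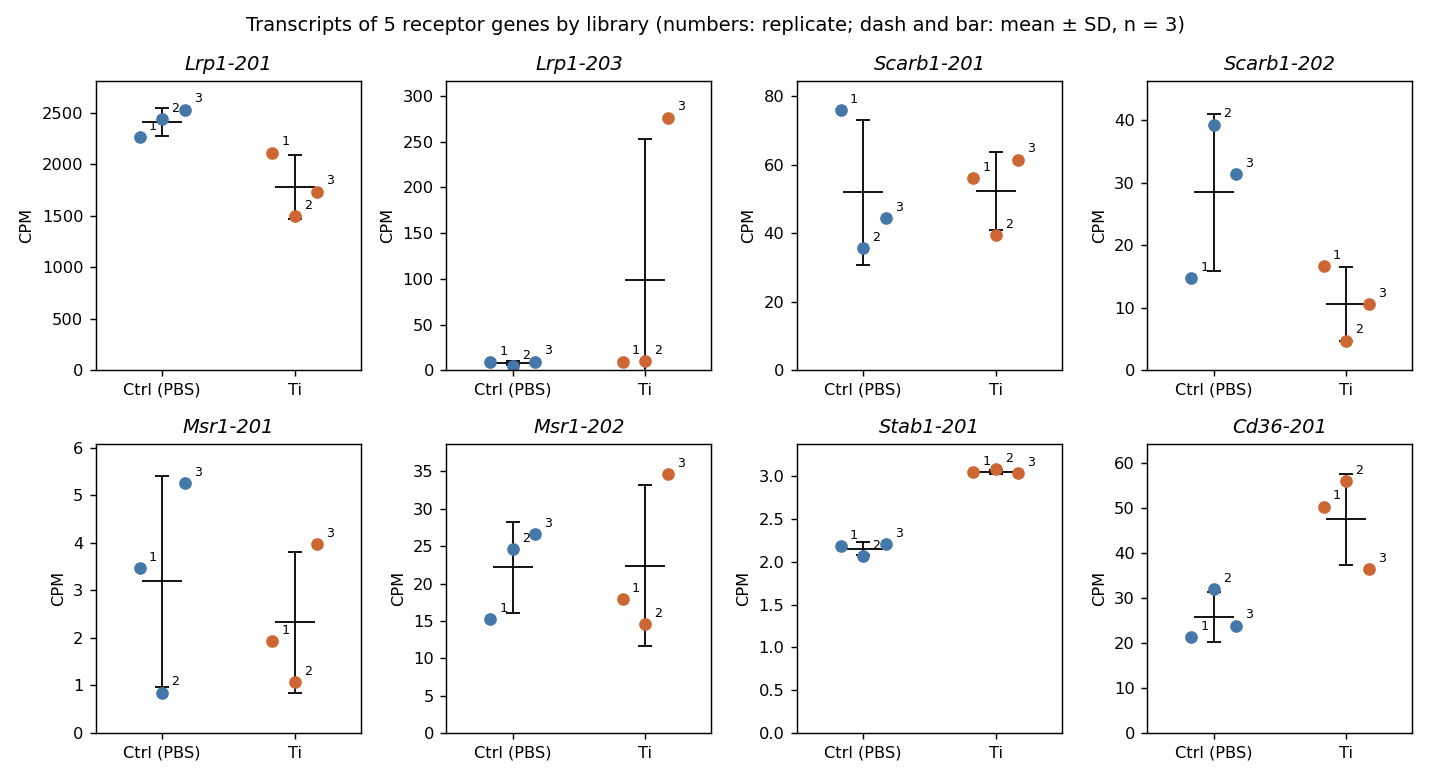
CPM of 8 transcripts of 5 receptor genes by library, with replicate numbers beside the points and mean ± SD (n = 3 per group). Lrp1-201 is lower and Stab1-201 higher in all 3 Ti libraries, while Lrp1-203 is high in Ti replicate 3 alone.

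Over all receptor transcripts, 44 of 57 annotated had a value and 30 were tested. None passed an adjusted p of 0.05 (edgeR), beside 0.00721% of the 41599 transcripts tested, and 3 passed an unadjusted p under 0.05 (Lrp1-201, Cd36-201 and Scarb1-202), beside 4.29%. Groups were separated for 5 of the 30, Cd36-201, Lrp1-201, Lrp1-203, Scarb1-209 and Stab1-201, beside 10.5% of all transcripts tested. Of these 5, 4 were higher with Ti, beside 5.84% of all transcripts, and Lrp1-201 was lower, beside 4.63%. In Lrp1-203 and Scarb1-209 a single Ti library held most of the signal.

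**Figure D5:**
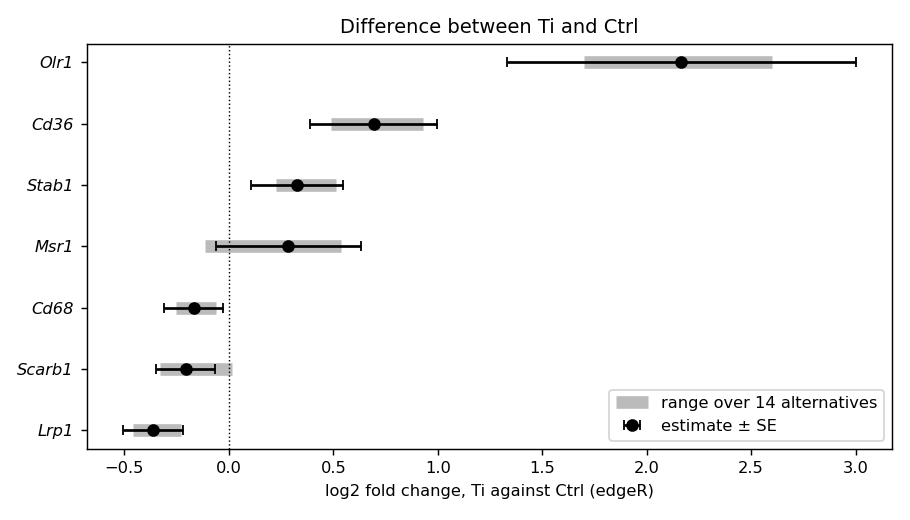
log2 fold change of Ti against Ctrl for the 7 tested receptor genes, as the edgeR estimate ± SE (black) over its range across 14 alternative analyses (grey). The estimates run from -0.36 for Lrp1 to 2.17 for Olr1, and the grey bars of Msr1 and Scarb1 reach across 0.

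Further genes of scavenger receptor biology were read from the same fit, in 8 lists of 76 genes by role. Of these, 54 were tested, 29 with positive and 25 with negative fold changes. None of the 54 passed over all genes with edgeR, beside 0.026% of all genes tested. An unadjusted edgeR p under 0.05 was reached by 9, beside 6.76% of all genes. DESeq2 called 3, Lyn and Cebpa among them, beside 1.91% of all genes. The lists were chosen with earlier results of these data known, so these counts do not test them.

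Of 13 ligands, 9 were tested, 7 with positive fold changes and a median of 0.16. Mfge8, which bridges apoptotic cells to integrins, averaged 76.1 ± 5.27 CPM in Ctrl and 55.8 ± 8.49 CPM in Ti (log2 fold change -0.45 ± 0.14, edgeR adjusted p 0.607). Hsp90b1 averaged 1903 ± 32.9 CPM in Ctrl and 2097 ± 98.2 CPM in Ti (log2 fold change 0.14 ± 0.08, edgeR adjusted p 0.823). C1qc was close to the limit of detection, at 0.156 to 0.249 CPM in Ctrl and 0.214 to 0.707 CPM in Ti. Its groups overlapped (log2 fold change 0.96 ± 0.54, edgeR adjusted p 0.823).

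Among 14 partners and adaptors, 12 were tested, 5 with positive and 7 with negative fold changes and a median of -0.021. Lyn, a Src family kinase that Cd36 can engage, stood at 203, 200 and 195 CPM in Ctrl and at 267, 260 and 293 CPM in Ti replicates 1, 2 and 3 (log2 fold change 0.46 ± 0.09, edgeR adjusted p 0.271, DESeq2 adjusted p 0.0011). The adaptor gene Shc1 averaged 141 ± 9.39 CPM in Ctrl and 119 ± 4.12 CPM in Ti, with separated groups (log2 fold change -0.24 ± 0.09, edgeR adjusted p 0.694). Snx17, a sorting nexin that recycles Lrp1, stood at 74.1, 56.6 and 77.5 CPM in Ctrl and at 9.59, 59.6 and 17.2 CPM in Ti replicates 1, 2 and 3, so that Ti replicate 2 lay among the Ctrl libraries.

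All 12 transcription regulators were tested, 7 with positive and 5 with negative fold changes and a median of 0.053. Cebpa and Cebpb, a pair of C/EBP factors of myeloid cells, had fold changes of opposite sign. Cebpa averaged 66.4 ± 1.80 CPM in Ctrl and 51.5 ± 3.23 CPM in Ti (edgeR adjusted p 0.473, DESeq2 adjusted p 0.0458), and Cebpb 141 ± 7.71 and 180 ± 8.93 CPM (edgeR adjusted p 0.458, DESeq2 adjusted p 0.0688). Srebf2, the sterol-responsive factor, had a log2 fold change of -0.20 ± 0.18. Pparg, a nuclear receptor that controls Cd36 in macrophages, was scarce, at 0.192 to 0.438 CPM in Ctrl and 0.0644 to 0.482 CPM in Ti.

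Among 15 other scavenger receptors, 8 were tested, 4 in each direction, with a median log2 fold change of -0.023, and 4 were at 0 in every library, Cd163 among them. Colec12, a collectin of class A, stood at 477, 499 and 449 CPM in Ctrl and at 417, 429 and 424 CPM in Ti replicates 1, 2 and 3 (log2 fold change -0.17 ± 0.08, edgeR adjusted p 0.796). Scarb2, the lysosomal member of class B, stood at 114, 108 and 90.0 CPM in Ctrl and at 80.0, 80.3 and 80.4 CPM in Ti (log2 fold change -0.37 ± 0.12, edgeR adjusted p 0.577). Both had separated groups and, like Scarb1, a negative fold change that did not pass the test. Megf11 and Cd44, the hyaluronan receptor, had log2 fold changes of 0.90 ± 0.56 and 0.38 ± 0.31 with overlapping groups. Megf11 was close to the limit of detection, at 0.125 to 0.249 CPM in Ctrl and 0.146 to 0.515 CPM in Ti.

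Of 11 other LDL receptor family genes, 7 were tested, 2 with positive and 5 with negative fold changes and a median of -0.065. Sorl1, a sorting receptor, stood at 36.2, 38.4 and 33.2 CPM in Ctrl and at 21.2, 14.3 and 31.0 CPM in Ti replicates 1, 2 and 3, with separated groups (log2 fold change -0.70 ± 0.28, edgeR adjusted p 0.736). Lrp5, a Wnt co-receptor, had -0.93 ± 0.47, Lrp8 -0.77 ± 0.61 and Lrp12 0.43 ± 0.37, each with overlapping groups. Ctrl replicate 2 of Lrp5 lay far above its other libraries. Lrp5 stood at 71.2, 184 and 51.1 CPM in Ctrl and at 59.2, 53.6 and 48.3 CPM in Ti replicates 1, 2 and 3. Of 4 LAMP genes 3 were tested, with log2 fold changes of -0.15 ± 0.10 for Lamp1, 0.0048 ± 0.66 for Lamp2 and 0.51 ± 0.48 for Lamp3. Of 3 mannose receptor relatives 1 was tested, Mrc2 with 0.39 ± 1.33, at 0 to 0.453 CPM in Ctrl and 0.0208 to 0.455 CPM in Ti. Of 4 shedding genes 2 were tested, Adam10 with -0.19 ± 0.26 and Adam17 with 0.00028 ± 0.16.

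The genes whose log2 CPM followed Olr1 most closely over the 6 libraries, among 6330 genes of at least 20 CPM, were Zfp598 (Pearson r 0.993), Bpnt1 (0.992) and Rrn3 (0.992). For Lrp1 they were Cc2d1b (0.988), Slc17a5 (0.985) and Lin54 (0.984). Zfp598 ran only from 36.1 CPM in Ctrl replicate 3 to 57.1 CPM in Ti replicate 1, a far narrower range than that of Olr1, and Cc2d1b from 53.9 CPM in Ti replicate 2 to 71.7 CPM in Ctrl replicate 3. In all, 38 genes had r over 0.95 with Olr1 and 17 with Lrp1. The points share library and depth, so these values describe the 6 libraries alone.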

How the data were processed

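RNA of 3 PBS and 3 Ti libraries of RAW264.7 cells was compared. The authors deposited 187351 estimated counts for each library, all whole, 1 for each transcript. Per the submitters' processing notes, HISAT2 and StringTie were used and the build was mm9; the counting step and the versions were not found in the sources used here. The 141862 Ensembl rows match GENCODE vM21 one for one, so names and coordinates are on GRCm38; the 45489 assembled rows were left out.

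Deposited values grew nearly in proportion to genomic span (slope on log scales 0.97 over protein-coding transcripts). The slope of -0.028 per exon base after division by span follows from this by algebra and is no further check. Each deposited value was therefore multiplied by exon length over span, summed per gene and rounded. Genes were tested with edgeR 4.0.16 in R 4.3.3 (quasi-likelihood, TMM, filterByExpr, Benjamini-Hochberg at 0.05), transcripts likewise. The SE is the fold change over the square root of F. DESeq2 1.42.0 was an alternative, besides other filters and scalings, unrescaled values, coding transcripts only, a replicate block and leaving out each library. The edgeR script was checked on simulated data.

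Same-numbered libraries deviated together across genes (r = 0.11, 0.144 and 0.266; other pairs -0.17 to 0.0402). Every value exceeds 0.1, but the labels state no pairing. The deviations within a group sum to 0 for each gene, so the values of the other pairs are not independent of these. The p-values and SE given for each gene come from the unpaired fit. A fit that treats same-numbered libraries as pairs (the replicate block) was an alternative. No pair of libraries agreed within sampling noise in a chi-square check on the rescaled counts. Because rescaled counts are not reads, this check cannot tell technical repeats from separate cultures.

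The members and lists were chosen with earlier results of these data known. The named genes are the 9 members, up to 4 genes of each list with the smallest p, and 3 genes most alike to Olr1 (smallest p) and Lrp1 (highest CPM). Csf1r, Pparg and the list genes called by DESeq2 were named after their values were seen, as were the transcripts described singly. Some genes that this rule names are not reported here. Likeness used log2(CPM + 0.05). Sequences come from RefSeq (promoters, GRCm38.p6; 7 of the 9 genes matched) and GENCODE vM21 transcripts.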

Additional observations from a re-analysis of the deposited data

How the results depend on the processing

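None of the 7 receptor genes passed under any of the 14 alternatives run (lowest adjusted p 0.227, Olr1 with DESeq2), and none of their transcripts did under the 9 run for transcripts. Of 98 fold changes recomputed for these genes, 95 kept their direction. Msr1 ran from -0.12 to 0.53 with 1 library left out (0.53 without Ctrl replicate 3). The 3 that turned were Msr1, at -0.12 without Ti replicate 3 and -0.00089 with protein-coding transcripts only, and Scarb1, at 0.017 with the most abundant transcript only, which was added after seeing the data; the cause was not tested. All 72 recomputed mean CPM levels of the 9 genes stayed within 1 SD. With 1 of 3 libraries left out this was bound to hold, because that cannot move a mean by 1 SD. Only the levels over unscaled library totals could have moved further, and Marco and Mrc1 were at 0 throughout. The count of genes called over the whole table, 4, was 292 with DESeq2's test, 0 with the replicate block in edgeR (1440 at an unadjusted p under 0.05) and 2 with protein-coding transcripts only, and 1 to 13 with 1 library left out (1 without Ctrl replicate 2 or Ti replicate 1, 2 without Ctrl replicate 1, 11 without Ti replicate 2 and 13 without Ti replicate 3); the cause was not tested. The block, which treats same-numbered libraries as pairs, changed no receptor call. With it Cd36 had a log2 fold change of 0.67 (unadjusted p 0.00083, edgeR adjusted p 0.292) and Olr1 2.30 (unadjusted p 0.0014, edgeR adjusted p 0.336). Depth limits Olr1 and Stab1 most, and the deposited values allow no exact counting error.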
